A study of Mus musculus with 9 samples.

Results

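Of 14479 genes in the deposited expression matrix, 37 genes of the heat shock and unfolded protein responses were described across 9 ventricle libraries. They were chosen by gene symbol from a fixed list of chaperones and stress transcription factors, and all 37 were found. Of these, 16 belong to the cytosolic heat shock system, 4 are mitochondrial chaperones and 17 belong to the endoplasmic reticulum (ER). The study measured transcript levels as FPKM (fragments counted per transcript length and per sequencing output of the library) in CD-1 mice operated on at postnatal day 1 and killed at postnatal day 2. Sham-operated mice gave 3 libraries, mice with ventricular apical resection (removal of the tip of the ventricle) gave 3, and mice with apical resection and left vagotomy (cutting of the left vagus nerve) gave 3. The last group is called the vagotomy group below, and no library came from vagotomy without resection. RNA came from the lower part of the ventricle, frozen whole, so the values are averages over all cell types of that tissue. The labels do not say whether replicates were separate pups or litters, so the tests measure only the spread between these libraries, which may be technical.

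When proteins misfold, cells raise chaperones through separate programmes for each compartment. In the cytosol, the transcription factor HSF1 is held back by chaperones and, once released, binds heat shock elements upstream of genes such as those for HSP70, HSP90 and the small heat shock proteins. In the ER, the sensors IRE1, PERK and ATF6 read the unfolded load. IRE1 splices the Xbp1 transcript into the form that makes an active factor, PERK signalling raises translation of ATF4, and cleaved ATF6 acts with NF-Y at ER stress elements. Heart muscle carries a large folding load because sarcomere proteins and calcium-handling membrane proteins are made and turned over continuously, and small heat shock proteins and BAG3 act at its sarcomeres. FPKM gives transcript amounts, so it reports neither Xbp1 splicing nor ATF6 cleavage nor ATF4 translation.

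The sequences around the start sites show which members carry the elements of these programmes. RefSeq promoter windows (GRCm38.p6, 250 bases before to 50 after the start site) were found for 30 of the 37 members and searched on both strands. The ER stress element searched, CCAAT followed after 9 bases by CCACG, was in 7 members' windows and in 0.119% of all 32851 windows. The stretches below hold it in capitals, on either strand, and stand 5′ to 3′ on the gene's strand.
Hspa5 (chr2:34772005-34772063, plus strand): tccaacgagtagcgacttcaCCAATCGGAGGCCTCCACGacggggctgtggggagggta
Creld2 (chr15:88819500-88819558, plus strand): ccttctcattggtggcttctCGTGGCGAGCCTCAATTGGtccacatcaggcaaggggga
Hsp90b1 (chr10:86705513-86705676, minus strand): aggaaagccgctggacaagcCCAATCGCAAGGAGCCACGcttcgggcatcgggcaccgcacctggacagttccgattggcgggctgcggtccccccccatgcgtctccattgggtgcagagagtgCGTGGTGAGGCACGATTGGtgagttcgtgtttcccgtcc
Calr (chr8:84847055-84847113, minus strand): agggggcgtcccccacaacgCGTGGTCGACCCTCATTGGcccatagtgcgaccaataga
Canx (chr11:50325780-50325838, minus strand): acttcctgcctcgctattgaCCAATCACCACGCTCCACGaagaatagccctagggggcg
Dnajc3 (chr14:118937807-118937865, plus strand): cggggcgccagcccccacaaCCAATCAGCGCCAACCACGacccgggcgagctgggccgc
Pdia6 (chr12:17266471-17266529, plus strand): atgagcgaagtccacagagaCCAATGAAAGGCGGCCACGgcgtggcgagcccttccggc

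A second form of the ER stress element, ATTGG and CCACG separated by 1 base, was in 0.0365% of windows and, among members, in that of Herpud1. The Herpud1 stretch also holds the C/EBP-ATF element TTGCATCA, which 0.895% of windows hold and which no other member's window held. Both are in capitals in this stretch.
Herpud1 (chr8:94386297-94386407, plus strand): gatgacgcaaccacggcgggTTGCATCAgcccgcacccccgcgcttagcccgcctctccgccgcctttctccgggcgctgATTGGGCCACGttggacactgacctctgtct

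The heat shock element searched, GAA and TTC and GAA with 2 bases between neighbours, was in the windows of Hsph1, Hspd1 and Hspe1 and in 0.603% of all windows. In Hsph1 the match, not printed here, lay after the start site, at bases 16 to 28 or 37 to 49 depending on the window. Hspd1 and Hspe1 start on opposite strands, back to back, and share 1 stretch in which 2 overlapping matches are in capitals. Another Hspd1 start site, which this stretch does not lie upstream of, had a window without a match. The stretch is shown on the Hspd1 strand.
Hspd1 (chr1:55088039-55088096, minus strand): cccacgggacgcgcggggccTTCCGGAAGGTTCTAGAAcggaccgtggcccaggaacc

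The CRE-like element TGACGTGG was in 0.676% of windows and in no member's. A match describes letters in a window and is neither a bound site nor a cause, and a missing match says nothing of the factor outside these letters.

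The libraries had medians between 7.52 and 8.29 FPKM over all genes, and their correlations across genes ran from 0.746 to 0.951. FPKM keeps no read total, so the depth of each library is unknown and no counting interval is given. Of 11 ventricular cardiomyocyte markers, all were detected in sham libraries, but Myh6 and Actc1 are listed at 0 in all 3 vagotomy libraries while they read 1326 to 3718 and 3600 to 7955 FPKM in the other 6. The other 9 did not share that direction. Myl3 rose from 898 FPKM ± 507 (SD, n = 3) in resection to 7663 ± 2616 in vagotomy libraries (limma adjusted p = 0.0166). None of the remaining 8 passed an adjusted p under 0.05 in vagotomy against resection. Their log2 differences ran from -0.07 for Myl2 to 1.36 for Tnnt2, and the median of all 11 was 0.29. Of the 8, Atp2a2 was higher without overlap, at 938.3 to 1696 FPKM in resection and 2139 to 5073 in vagotomy libraries. No member is listed at 0 in any library. Macrophage markers summed to 60.6 to 88.8 FPKM in sham, 211 to 371 in resection and 255 to 319 in vagotomy libraries. Neutrophil markers summed to 23.9 to 48.3, 226 to 327 and 133 to 366 FPKM. The part of these shifts in the members' values was not tested, nor was how the zeros of Myh6 and Actc1 arose. For the other markers, a change in the number of cells of a type cannot be told apart from a change in RNA per cell.

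In sham ventricle, abundant and scarce members were found in the cytosolic and ER groups alike. The highest mean was that of Hsp90ab1, the constitutive cytosolic HSP90, at 379.8 FPKM ± 207.7 (SD, n = 3). Hspb7, a small heat shock protein of heart muscle, followed at 370.9 ± 75.49, and Hspa8, the constitutive HSP70, at 241.0 ± 8.327. The mitochondrial HSP70 Hspa9 had 209.1 ± 52.62, and the ER lectin chaperone Calr and the ER HSP70 Hspa5 (BiP) had 179.6 ± 12.98 and 154.0 ± 36.36. In the order of the 37 sham means, 33 of 36 neighbouring pairs overlapped in their library ranges. The heat-inducible HSP70 genes stood at the bottom. Hspa1a read 0.736, 0.201 and 0.151 FPKM in sham, 0.812, 0.885 and 0.224 in resection and 0.536, 1.20 and 0.571 in vagotomy libraries. Hspa1b read 0.429, 0.382 and 0.299 in sham, 1.36, 0.829 and 0.469 in resection and 0.273, 0.426 and 0.322 in vagotomy libraries. All resection values of Hspa1b lay above all its sham and vagotomy values. Hspa1a and Hspa1b stayed under the mean of 1 FPKM needed for testing, so 35 members were tested, and these near-identical copies may share reads. Hsf1 itself was low, at 9.987, 7.189 and 4.863 FPKM in sham, 13.63, 4.570 and 5.709 in resection and 8.478, 8.133 and 4.898 in vagotomy libraries, and all 3 groups overlapped. Members varied between replicates about as much as other genes. Their median coefficient of variation was 23.2% in sham, 26.4% in resection and 27% in vagotomy libraries, against 23.8%, 32.7% and 27.6% over all tested genes.

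**Figure D1:**
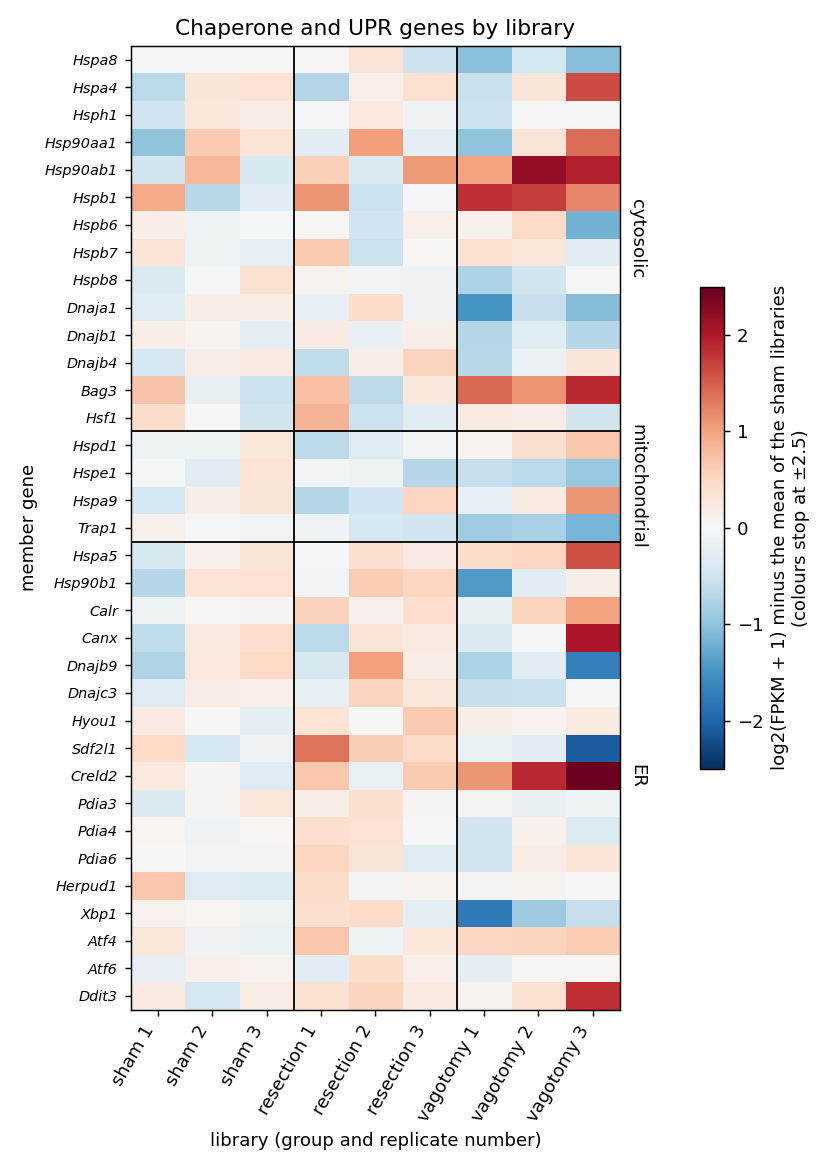
Each row is 1 of the 35 tested members and each column 1 library. Colour gives log2(FPKM + 1) minus the mean of the 3 sham libraries, and colours stop at ±2.5. Red and blue rows stand side by side within each compartment in the vagotomy libraries, with Creld2 and Bag3 red and Trap1, Xbp1 and Dnaja1 blue.

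Resection against sham asks what removal of the apex does within a day. None of the 35 tested members changed at an adjusted p under 0.05 in limma's moderated test, where 0.294% of all tested genes did. None passed an unadjusted p under 0.05 either, where 5.89% of all genes did. The log2 changes ran from -0.35 for Hspd1 to 0.81 for Sdf2l1, and every member's adjusted p was 1. The groups did not overlap for 2 of the 35 tested members, higher for Calr and lower for Trap1, which is 5.71% beside 10.8% of all genes. Hspa1b, too low to be tested, was higher without overlap too.

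The signs differed by compartment although no member passed. Of the 17 ER members, 16 had a positive log2 change, with a median of 0.26 beside a median of -0.01 over all tested genes. The 14 tested cytosolic members had a median of 0.05, with 10 positive and 4 negative. All 4 mitochondrial members were negative, with a median of -0.32. These counts describe the lists and carry no test.

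Calr, which holds ER calcium and folds glycoproteins, read 164.6, 186.7 and 187.5 FPKM in the sham libraries and 267.4, 192.3 and 241.4 in the resection libraries. Every resection library was above every sham library, by a small margin in replicate 2. Sdf2l1, an ER cofactor that works with BiP, read 10.86, 5.299 and 6.878 FPKM in sham and 20.51, 11.76 and 10.67 in resection, and the lowest resection value fell just under the highest sham value. The log2 difference was 0.81 (SE 0.49). Hyou1, an ER exchange factor for BiP, read 29.07, 25.23 and 21.36 FPKM in sham, 31.88, 24.78 and 39.74 in resection and 28.15, 26.78 and 29.55 in vagotomy libraries, and overlapped throughout. In the authors' deposited table, which tests with Cuffdiff, Sdf2l1 was the 1 member of 36 tested with a q under 0.05 (q = 0.0125, higher after resection), and 6.12% of all genes had one.

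The sham values of cytosolic members that are taken up again for vagotomy overlapped their resection values. Hspb1 read 204.8, 64.85 and 87.28 FPKM in sham, and Bag3 read 45.46, 23.96 and 18.36. Hsp90ab1 read 252.2, 619.5 and 267.8 FPKM, Hspa8 read 231.7, 243.7 and 247.6, and Dnaja1 read 24, 33.56 and 32.99.

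Hspd1 read 87.75, 87.98 and 116.0 FPKM in sham, Hspe1 read 113.4, 95.90 and 149.5, and Hspa5 read 114.3, 162.1 and 185.7. Xbp1 read 58.83, 56.65 and 50.30 FPKM in sham, with 1 resection library below and 2 above all of them. Of the mitochondrial members, Trap1 had the resection libraries wholly below sham, with a log2 difference of -0.33 (SE 0.23).

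Vagotomy with resection against resection asks what loss of left vagal input adds to the injury. The vagotomy libraries stood apart for single members of each compartment, in opposite directions. The share of members whose groups did not overlap was close to that of all genes, and no compartment moved as a whole. Counts by other criteria gave members a lower or a higher share than all genes. None of the 35 members changed at an adjusted p under 0.05, where 3.52% of all tested genes did, and the lowest adjusted p was 0.0604. At an unadjusted p under 0.05 there were 12 members, 5 higher and 7 lower, which is 34.3% beside 24.2% of all genes. The groups did not overlap for 10 of the tested members, 5 higher and 5 lower, or 28.6% beside 26.2% of all genes. With the replicate numbers as a block, 4 members passed (Hspb1 and Bag3 higher, Dnaja1 and Sdf2l1 lower), or 11.4% beside 9.64% of all genes. In the authors' deposited table, 13 of 35 members tested had a q under 0.05, 4 higher and 9 lower. This share was larger than the 17.1% of all genes that had one, and the difference was not tested. The median log2 change was -0.06 over cytosolic, 0.08 over mitochondrial and -0.16 over ER members, and 0.02 over all genes.

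Of the cytosolic HSP70 and J-domain genes, Dnaja1, Dnajb1 and Hspa8 had lower values in the vagotomy group at an unadjusted p under 0.05, and none passed after adjustment. Dnaja1, a J-domain protein that hands clients to HSP70, read 25.76, 41.10 and 27.91 FPKM in resection and 9.883, 19.78 and 13.65 in vagotomy libraries. All vagotomy values lay below all resection values, with a log2 difference of -1.10 (SE 0.30, limma adjusted p = 0.0701). Dnajb1, the J-domain partner of inducible HSP70, read 20.89, 15.61 and 19.87 FPKM in resection and 10.59, 14.25 and 10.47 after vagotomy, again without overlap. Hspa8 read 250, 300.6 and 168.2 FPKM in resection and 116.5, 177.2 and 114.4 after vagotomy, and 1 library of each group overlapped. Its deposited locus also spans small nucleolar RNA genes, and that of Dnaja1 spans other genes too, so reads cannot be assigned with certainty. Hsph1 and Dnajb4 had log2 differences of -0.23 and -0.21, neither past an unadjusted p of 0.05. Hspa4, an HSP110-type exchange factor, had a log2 difference of 0.53 with an adjusted p of 0.579, and its 3 vagotomy libraries ran from 39.49 to 184.5 FPKM.

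Bag3, a cochaperone that links HSP70 to small heat shock proteins and to autophagy in muscle, was higher. It read 46.80, 16.85 and 33.52 FPKM in resection and 75.23, 60.46 and 101.6 in vagotomy libraries, a log2 difference of 1.34 (SE 0.42, limma adjusted p = 0.0986). Hspb1 (HSP25), which holds unfolded proteins and binds actin filaments, read 225.6, 72.64 and 103.4 FPKM in resection and 372.9, 351.7 and 245.2 after vagotomy. All vagotomy values of both genes stood above all resection values. The other small heat shock proteins among the members were Hspb6, Hspb7 and Hspb8. They had log2 differences of -0.09, 0.08 and -0.40, none past an unadjusted p of 0.05. Outside the members, the small heat shock genes Hspb2 and Cryab had 1.69 and 1.20 (limma adjusted p = 0.0916 and 0.0981), and Hspb3 had 0.07. The annotated positions of Hspb2 and Cryab overlap on opposite strands, so these genes may share reads. Hsp90ab1 read 526.2, 269.0 and 730.9 FPKM in resection and 696.5, 1597 and 1322 after vagotomy, and overlapped through vagotomy replicate 1. The inducible HSP90 gene Hsp90aa1 read 55.78, 180.2 and 145.1 FPKM in sham, 93.04, 235.6 and 97.21 in resection and 56.06, 142.0 and 299.7 in vagotomy libraries. Its spread within each group was wider than any difference between the groups.

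**Figure D2:**
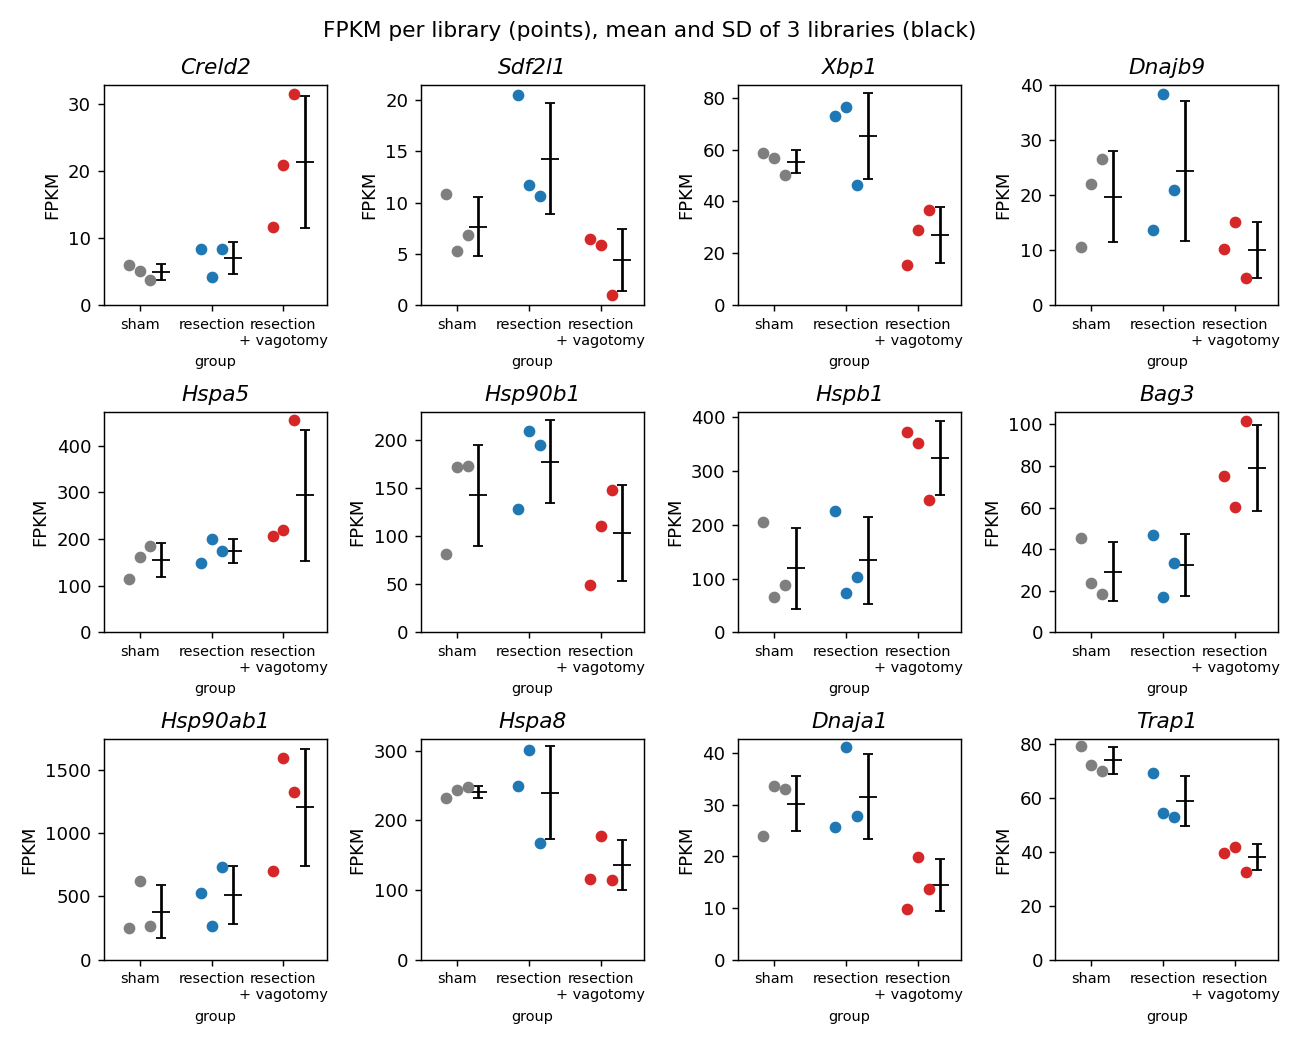
FPKM of selected members in each library, with the mean and SD of each group of 3 in black. The vagotomy points of Creld2 and Bag3 lie above all other points, and those of Dnaja1, Trap1 and Xbp1 lie below all others.

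The mitochondrial pair was split. HSP60 (Hspd1) and its lid HSP10 (Hspe1) form 1 folding chamber, and windows of both genes hold the stretch printed above. Hspd1 read 60.61, 76.73 and 92.00 FPKM in resection and 102.2, 127.6 and 156.8 after vagotomy, all higher, with a log2 difference of 0.74 (SE 0.28, limma adjusted p = 0.141). Hspe1 read 112.3, 108.1 and 71.32 in resection and 78.63, 73.21 and 60.81 after vagotomy, with a log2 difference of -0.43 and overlapping ranges. The authors' files place both genes in 1 locus, so the assignment of fragments between them is uncertain. Trap1, the mitochondrial HSP90, read 69.30, 54.18 and 52.74 FPKM in resection and 39.43, 41.90 and 32.52 after vagotomy, all lower.

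In the ER, members differed in direction. Creld2, a secreted and ER-resident disulfide isomerase, read 8.459, 4.265 and 8.323 FPKM in resection and 11.75, 20.94 and 31.51 in vagotomy libraries. Every vagotomy library was higher, with a log2 difference of 1.43 (SE 0.37, limma adjusted p = 0.0604). Hspa5 read 147.7, 200.9 and 173.9 FPKM in resection and 205.4, 219.3 and 454.5 after vagotomy. These groups did not overlap either, by a margin of a few FPKM, and vagotomy replicate 3 carried most of the difference.

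Xbp1, the transcript that IRE1 splices, read 72.78, 76.42 and 46.33 FPKM in resection and 15.57, 29.07 and 36.77 after vagotomy. All vagotomy values were lower, with a log2 difference of -1.28 (SE 0.33, limma adjusted p = 0.0615). Sdf2l1 read 6.478, 5.880 and 0.978 FPKM after vagotomy, below all 3 resection values, with a log2 difference of -1.66 (SE 0.49). Dnajb9, an ER J-domain protein that helps hold IRE1 inactive, read 13.67, 38.40 and 21.01 FPKM in resection and 10.18, 15.13 and 4.952 after vagotomy, with overlap at 1 library of each group. The PERK-arm members Atf4 and Ddit3 gave smaller differences than Xbp1.

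Atf4 read 71.84, 56.32 and 53.57 FPKM in sham, 97.74, 55.32 and 72.47 in resection and 86.44, 88.62 and 93.59 in vagotomy libraries. The vagotomy libraries lay above all sham libraries and within the resection range, with a log2 difference of 0.29 against resection. Ddit3 (CHOP), a factor downstream of ATF4, read 7.467, 4.452 and 7.268 FPKM in sham, 8.445, 9.629 and 7.434 in resection and 6.726, 8.398 and 25.16 in vagotomy libraries. Vagotomy replicate 3 stood above the other 8 values. Hsp90b1, the ER HSP90, read 82.05, 172.4 and 173.6 FPKM in sham, 128.3, 209.3 and 195.1 in resection and 49.66, 110.7 and 148.8 in vagotomy libraries, with overlap between all groups. The other 14 tested members, among them the isomerases Pdia3, Pdia4 and Pdia6, Canx, Herpud1 and Atf6, had log2 differences from -0.60 for Dnajc3 to 0.60 for Hspa9 in this comparison, and none of them passed an unadjusted p of 0.05 in any comparison.

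The 7 members whose printed windows hold the ER stress element did not share a direction in this comparison. Their log2 differences ran from -0.88 to 1.43, with 4 positive and 3 negative, and the lowest belonged to Hsp90b1 (GRP94), whose window holds 2 matches. The highest belonged to Creld2.

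Vagotomy with resection against sham shares its vagotomy libraries with the comparison above and its sham libraries with the first, so the values are not a separate line of evidence. Creld2 rose and Trap1 fell, and these 2 of 35 members are 5.71% beside 10.1% of all tested genes. Creld2 read 6.046, 5.177 and 3.748 FPKM in sham, and its log2 change was 1.82 (SE 0.37, limma adjusted p = 0.0187). Trap1 read 79.35, 72.14 and 70.04 FPKM in sham, and its log2 change was -0.95 (SE 0.23, limma adjusted p = 0.034). The deposited locus of Trap1 holds 4 genes, as does that of Hsp90b1, so their reads cannot be assigned with certainty. In total, 15 members share a deposited locus with another gene. All 3 vagotomy libraries lay above all sham libraries for Creld2 and below them for Trap1. At an unadjusted p under 0.05 there were 11 members, 5 higher and 6 lower, or 31.4% beside 30.1% of all genes. The groups did not overlap for 12 members, 6 in each direction, or 34.3% beside 36.7% of all genes. Bag3 (log2 1.47, adjusted p = 0.0527), Dnaja1 (log2 -1.05, adjusted p = 0.0532) and Hsp90ab1 (log2 1.71, adjusted p = 0.0548) stood just outside the threshold in limma. Both calls were lost on leaving out 1 of several libraries. Creld2 missed the threshold without sham replicate 2 or 3 or vagotomy replicate 2 or 3, and Trap1 without any 1 of the sham or vagotomy libraries, with adjusted p up to 0.0921 and 0.131. Over all 3 groups, limma's F-test called Creld2 alone (adjusted p = 0.0342), or 2.86% of members beside 5.89% of all genes.

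**Figure D3:**
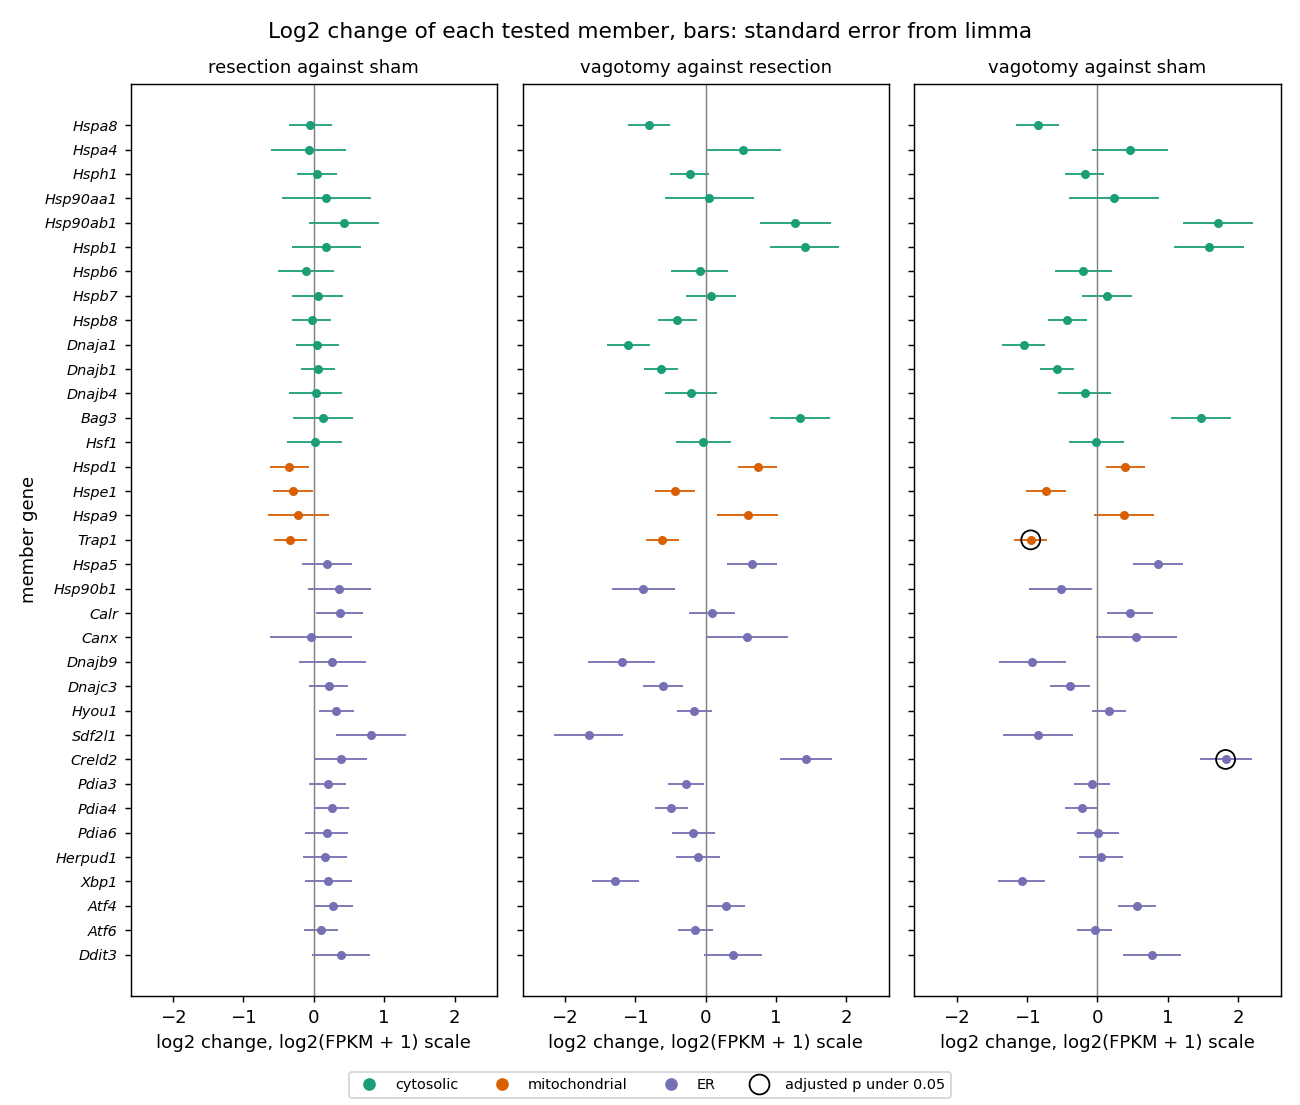
Log2 change of each tested member on the log2(FPKM + 1) scale in the 3 comparisons, with bars of 1 standard error from limma. Points lie near 0 for resection against sham and spread to both sides in the vagotomy comparisons, where Creld2 and Trap1 are circled as past the threshold against sham.

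Ratios within a library remove any scale shared by the whole library. The pairs were chosen after the values were seen, so they are given as a description with no test. The ratio of Hspa5 to Xbp1 was 1.94, 2.86 and 3.69 in sham, 2.03, 2.63 and 3.75 in resection and 13.2, 7.54 and 12.4 in vagotomy libraries. The ratio of Hspa5 to Hsp90b1, the 2 most abundant soluble ER chaperones of the HSP70 and HSP90 families, was 0.892 to 1.39 in the 6 libraries without vagotomy and 4.14, 1.98 and 3.05 with it. In both ratios every vagotomy library lay above every other library.

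The ratio of Bag3 to Dnajb1 ran from 1.08 to 2.24 without vagotomy and read 7.11, 4.24 and 9.7 with it. That of Hsp90ab1 to Hspa8 ran from 0.895 to 4.35 and read 5.98, 9.01 and 11.6. The ratio of Hspd1 to Hspe1 ran from 0.539 to 1.29 without vagotomy and read 1.3, 1.74 and 2.58 with it, so resection replicate 3 came close to vagotomy replicate 1. Creld2 to Sdf2l1 ran from 0.363 to 0.977 and read 1.81, 3.56 and 32.2, the last resting on an Sdf2l1 value of 0.978 FPKM.

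**Figure D4:**
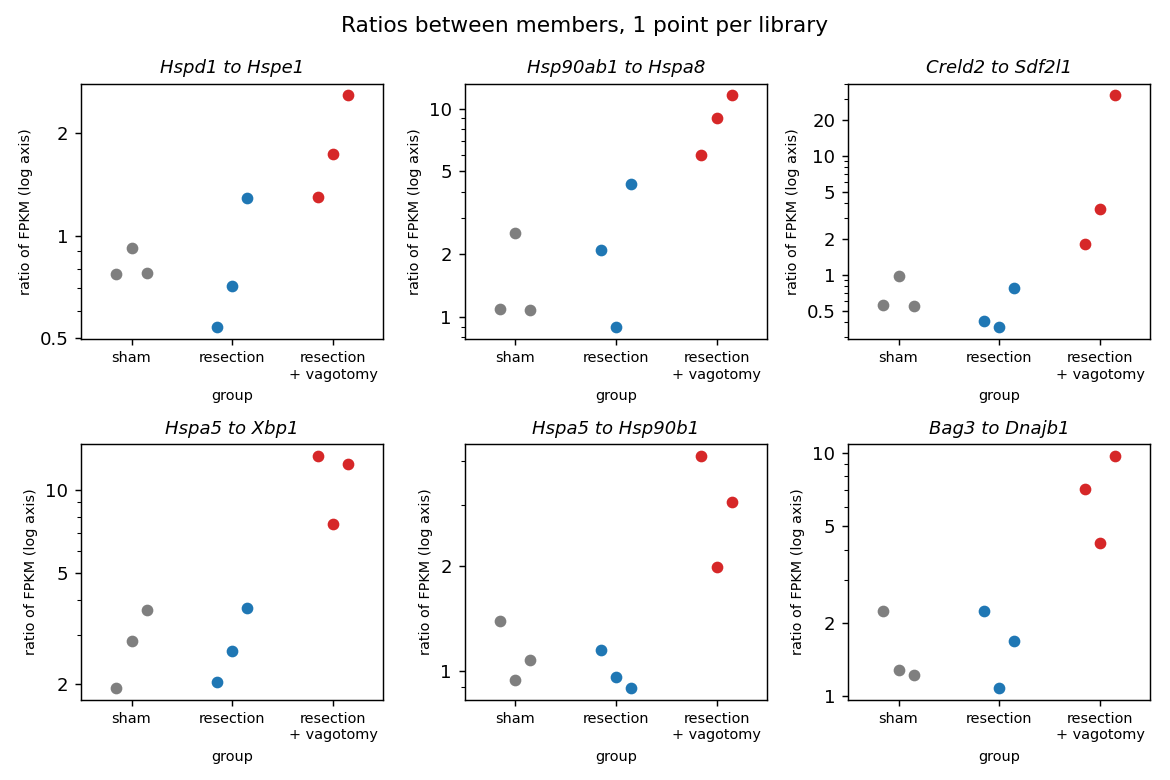
Ratio of FPKM between 2 members in each library, on a log axis, with 1 point per library and the groups along the x axis. In all 6 panels the 3 vagotomy points lie above every sham and resection point, with a narrow margin for Hspd1 to Hspe1.

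The rest of each pathway was read from lists of other genes. Of 38 other cytosolic chaperones and cochaperones, none changed with resection (1 at an unadjusted p under 0.05 in limma, and 1 in the authors' deposited table), 1 rose in vagotomy against resection and 3 rose against sham, where 3.52% and 10.1% of all tested genes were called. At an unadjusted p under 0.05 there were 12 of the 38 against resection and 11 against sham, and the authors' deposited table called 13 against resection. Over all tested genes, 24.2% and 30.1% had such a p in these comparisons, and the authors' table called 17.1% against resection. For resection against sham the shares were 5.89% and 6.12%. The gene called in both vagotomy comparisons was Cct8, a subunit of the TRiC chamber that folds actin and tubulin. Its mean was 77.12 FPKM ± 14.41 in sham, 93.01 ± 18.28 in resection and 236.0 ± 52.50 in vagotomy libraries (SD, n = 3), with a log2 change of 1.33 against resection (limma adjusted p = 0.037). The subunit gene Cct2 and the cochaperone gene Bag5 rose against sham.

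Of 30 other ER folding and export genes, Rcn1, an ER calcium-binding protein, rose and Pdia5, a disulfide isomerase, fell in vagotomy against resection. Rcn1 and Erp29 rose against sham. Over all tested genes, 3.52% were called against resection and 10.1% against sham. At an unadjusted p under 0.05 there were 7 of the 30 against resection and 13 against sham, and the authors' deposited table called 8 against resection. Beside this list and those that follow, 24.2% and 30.1% of all tested genes had such a p, and the authors' table called 17.1%. None of 12 ER-associated degradation genes changed in any comparison in limma. At an unadjusted p under 0.05 there was 1 with resection, 1 in vagotomy against resection and 2 against sham, and the authors' deposited table held 0 for the first and 2 for the second. Of 20 other sensors and factors, Atf3, a stress-induced factor downstream of ATF4, rose from 3.277 FPKM ± 1.305 in resection to 15.18 ± 10.95 in vagotomy libraries (log2 1.76, limma adjusted p = 0.0461). Against sham, Atf3, Atf5 and Cebpb rose. Of the 20, 2 against resection and 4 against sham had an unadjusted p under 0.05, and the authors' deposited table called 2 against resection. For resection against sham, none was called in limma after adjustment. Atf3 (log2 0.91) was the 1 with an unadjusted p under 0.05, and the authors' table called 3. Over all genes these shares were 5.89% and 6.12%. Of 16 other mitochondrial chaperones and proteases, Phb2, a prohibitin of the inner membrane, rose and Dnajc19, a J-domain protein of the import motor, fell in both vagotomy comparisons. Dnajc19 read 31.47 FPKM ± 16.83 in resection and 6.051 ± 4.945 in vagotomy libraries. Of the 16, 6 against resection and 7 against sham had an unadjusted p under 0.05, and the authors' deposited table called 3 against resection.

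Members also varied together with the replicate number. In each of the 3 groups, replicate 1 was the lowest library for the same 11 of 35 members, among them Hspa4, Hsp90aa1, Hsp90b1, Canx, Hspa9, Hspa5 and Dnajc3, where 17.1% of all tested genes were lowest in replicate 1 of every group. Replicate 1 was the highest library in every group for 4 of 35 members, Hspb1, Hspb7, Hsf1 and Sdf2l1, where 10.4% of all tested genes were highest there, so this count is close to the background. The transcripts of the 11 had a median GC content of 43.7% and those of the 4 of 57.1%. Across 13118 genes, the log2 difference of vagotomy against resection correlated with transcript GC content at r = 0.292 and with log2 length at 0.102. These are correlations across genes of the same libraries, and genes are not independent replicates. With both trends removed, 9 of 35 members passed in vagotomy against resection, or 25.7% beside 10.9% of all genes. They were Hspb1, Bag3, Hspd1 and Creld2 on the higher side and Dnaja1, Dnajb1, Trap1, Sdf2l1 and Xbp1 on the lower side, and this adjustment was chosen after seeing the data.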

How the data were processed

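Values are FPKM per gene and library, deposited by the authors with 1 added, which was subtracted. Per the submitters' processing notes, TopHat2 2.0.9, Cufflinks 2.1.1 and Cuffdiff 2.1.1 were used with GRCm38. The authors' deposited tables of Cuffdiff comparisons give p-values and q-values, used only where named. Members were joined by gene identifier. limma 3.58.1 (R 4.3.3) was run on log2(FPKM + 1) over all 9 libraries with a mean-variance trend, on the 13249 genes averaging 1 FPKM or more, and p-values were adjusted over all of them by Benjamini-Hochberg. Fold changes of low genes are understated on this scale. Scripts were tested on simulated data. Sequences came from RefSeq windows, and GC content and length from GENCODE M21. Library values are given for members past the threshold, for the 3 with the smallest unadjusted p per compartment in the first 2 comparisons, and for the defining genes of each class (Hspa1a, Hspa1b, Hspa8, Hsp90aa1, Hspb1, Hspd1, Hspa5, Hsp90b1, Xbp1, Atf4, Ddit3 and Hsf1). Dnajb1 and Dnajb9 were added after their values were seen, as members with an unadjusted p under 0.05. Named pathway genes are up to 4 per list by smallest p, and Hspb2, Hspb3 and Cryab were added after their values were seen. The members and lists were chosen with earlier results of these data known. Replicate numbers come from the sample titles. Same-numbered resection and vagotomy libraries deviated together (r = 0.199, 0.141 and 0.117), so the result with the replicate number as a block stands beside that comparison. The block was fitted over all 9 libraries, so the sham libraries were blocked by their numbers too. Every other printed error and adjusted p comes from the fit without the block. Codes in the sample descriptions carry other numbers for the third sham and resection libraries than the titles do, so the pairing of the third libraries rests on the titles and these correlations. Sham replicates 1 and 2 correlated with the same-numbered resection (r = 0.498 and 0.197) and vagotomy libraries (r = 0.186 and 0.17). Sham replicate 3 did not (r = 0.013 and -0.019), and it correlated at 0.335 with resection replicate 2. The check therefore did not settle whether the sham libraries are paired. No libraries were identical. An exact permutation test of 3 against 3 libraries cannot go below p = 0.1.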

Additional observations from a re-analysis of the deposited data

How the results depend on the processing

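Brackets here and below give the share of all tested genes called. For vagotomy against resection no member was called (3.52%), and some settings called more members and a larger share of all genes. Protein-coding genes alone gave 1 (4.25%), and so did keeping only genes that averaged 5 FPKM or more (5.87%). Quantile normalization (4.05%) and scaling by the upper quartile (3.87%) also gave 1 each. Weighting libraries by quality gave 2 (6.69%), and blocking by replicate number gave 4 (9.64%). Taking out the GC and length trends gave 9 (10.9%), and Cuffdiff q-values from the authors gave 13 (17.1%). For vagotomy against sham, 2 calls (10.1%) became 5 with a mean of at least 5 FPKM (12.3%). They became 4 with upper-quartile scaling (10.3%), quantile normalization (10.4%) or robust moderation (10.8%). Library quality weights gave 15 (48.2%), and the weights did not converge. The replicate block gave 5 (18.2%), removal of the trends with GC and length 9 (18%) and protein-coding genes alone 6 (12.1%). Leaving out 1 library gave 0 to 5 (0.755% to 12.8%). For any difference among the groups, 1 call (5.89%) became 2 with upper-quartile scaling (6.07%) or quantile normalization (6.51%). Weights gave 11 (41.6%), the replicate block 5 (12.3%) and removal of the trends with GC and length 8 (14.6%). With 1 library left out there were 0 to 1 (0.845% to 8.2%). Resection against sham gave 0 in every limma setting run, the replicate block included, and 1 by Cuffdiff. Of the 9 members whose resection differences were recomputed in each setting (Hsp90ab1, Hspb1, Bag3, Trap1, Hspd1, Hspe1, Sdf2l1, Hyou1 and Calr, all uncalled), those that changed sign were Hsp90ab1 (-0.091 with weights), Hspb1 (-0.28 to 0.66 with 1 library left out) and Bag3 (-0.18 to 0.53). The causes were not tested. The GC and length and protein-coding settings were chosen after seeing the data. FPKM without read totals sets no limit of detection for Hspa1a and Hspa1b.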
